A study of Mus musculus with 32 samples.

Results

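Glutathione transferases were followed in mouse oocytes across 2 stages of meiosis and 3 kinds of female. The genes were the 10 named Gsto1, Gsto2, Gstm1, Gstm2, Gstm5, Gstp1, Gsta4, Gstt2, Gstk1 and Mgst1, matched by symbol to the NCBI gene identifiers of the count table, which held 37441 genes. All 10 were found, and all 10 passed the filter on low counts, as did 19003 genes in total. Gsto2 was chosen by its measured difference between D2 and B6 oocytes in these same libraries, so values that set D2 against B6 are given here as a description and without a test. The other 9 genes were added as relatives of Gsto2.

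Oocytes at metaphase II (MII, mature eggs arrested before fertilization) were set against oocytes at the germinal vesicle stage (GV, arrested earlier, in prophase of the first division). The females were of the inbred strain D2, the B6xD2 F1 hybrid and the inbred strain B6, none carrying an engineered allele per the labels, and were used at 8 to 12 weeks of age. There were 5 libraries of D2 MII, 5 of F1 MII, 6 of B6 MII, 5 of D2 GV, 6 of F1 GV and 5 of B6 GV, and each library held the pooled oocytes, 9 to 20 of them, of a single female. GV oocytes alone were collected in medium holding IBMX, which keeps them from resuming meiosis, so stage and that inhibitor cannot be told apart. Batch 1 gave 3 libraries to every group and batch 2 gave 2 or 3, read on a different sequencer model. Batch 2 joins 2 sets of libraries with different dates in their names: one holds both batch 2 libraries of F1 MII, 2 of F1 GV and 1 each of D2 MII and D2 GV, and the other holds all batch 2 libraries of B6, 1 of F1 GV and 1 each of D2 MII and D2 GV. Between F1 MII and B6 MII of batch 2, strain and set thus cannot be told apart. Libraries held 18.7 to 39.7 M counts, with a median of 28.1 M. The 12 oocyte marker genes summed to between 8050 and 12700 CPM (reads per 1e6 reads of the library, scaled by TMM, the trimmed mean of M values) in MII libraries and to between 9150 and 13300 CPM in GV libraries. Of these oocyte markers 5 were lower and 4 higher in MII, where 29% of all tested genes were lower and 22.9% higher.

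Glutathione transferases join the tripeptide glutathione to reactive, electron-poor compounds, which makes these easier to export and protects proteins, lipids and DNA. The soluble enzymes fall into classes named by Greek letters. Alpha, mu and pi enzymes use a tyrosine in the active site, theta enzymes a serine and omega enzymes a cysteine, which lets the omega class reduce mixed disulfides and dehydroascorbate. The kappa enzyme lies in mitochondria and peroxisomes, and the microsomal enzyme is a membrane protein of another family. Oocytes store glutathione as they mature, and the egg uses it to loosen the packed chromatin of the sperm after fertilization.

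The reference sequences around the start sites are shown for Gsto2 and, of the other genes, for the start sites whose window held a motif marked below. RefSeq promoter windows of GRCm38.p6, 250 bases before to 50 after a start site, were found for 8 of the 10 genes, as 11 windows. Each was searched on both strands for TGACNNNGC, the core of the antioxidant response element bound by Nrf2, for the TATA box TATAAA and for TAATTG, a motif bound by the oocyte factor Nobox. Capitals mark these 3 motifs, and no marked matches overlap.
Gsto2 start site 1, chr19:47865295-47865594, plus strand: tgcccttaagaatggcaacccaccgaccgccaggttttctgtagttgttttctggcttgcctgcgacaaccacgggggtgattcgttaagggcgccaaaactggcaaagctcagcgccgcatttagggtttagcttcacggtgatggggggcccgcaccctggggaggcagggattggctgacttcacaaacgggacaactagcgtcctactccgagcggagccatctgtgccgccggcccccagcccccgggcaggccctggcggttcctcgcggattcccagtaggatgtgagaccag
Gsto2 start site 2, chr19:47865544-47865843, plus strand: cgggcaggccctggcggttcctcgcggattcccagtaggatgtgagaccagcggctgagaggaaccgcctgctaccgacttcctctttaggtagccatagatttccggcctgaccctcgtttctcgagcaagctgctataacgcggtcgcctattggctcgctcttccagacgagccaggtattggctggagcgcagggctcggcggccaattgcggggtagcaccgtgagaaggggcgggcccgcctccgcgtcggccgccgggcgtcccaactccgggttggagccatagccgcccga
Gstm1 start site 2, chr3:108017769-108018068, minus strand: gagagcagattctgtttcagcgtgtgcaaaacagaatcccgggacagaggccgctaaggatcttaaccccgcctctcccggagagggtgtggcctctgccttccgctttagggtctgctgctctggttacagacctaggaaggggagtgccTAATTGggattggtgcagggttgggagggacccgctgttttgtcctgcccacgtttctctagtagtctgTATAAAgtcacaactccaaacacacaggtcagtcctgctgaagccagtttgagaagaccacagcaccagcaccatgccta
Gstm5 start site 1, chr3:107895604-107895903, plus strand: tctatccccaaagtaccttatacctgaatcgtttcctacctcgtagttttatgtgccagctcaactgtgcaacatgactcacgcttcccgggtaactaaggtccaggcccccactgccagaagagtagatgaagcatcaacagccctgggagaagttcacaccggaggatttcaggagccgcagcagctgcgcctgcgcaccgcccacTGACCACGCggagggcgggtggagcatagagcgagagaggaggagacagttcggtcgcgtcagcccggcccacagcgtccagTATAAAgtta
Mgst1 start site 1, chr6:138140277-138140576, plus strand: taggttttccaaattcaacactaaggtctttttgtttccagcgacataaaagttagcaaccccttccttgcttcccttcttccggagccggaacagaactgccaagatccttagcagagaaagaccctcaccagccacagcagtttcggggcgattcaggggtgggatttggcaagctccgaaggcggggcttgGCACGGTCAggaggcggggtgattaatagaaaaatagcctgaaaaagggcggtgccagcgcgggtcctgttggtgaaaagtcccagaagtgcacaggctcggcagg
TGACNNNGC stood in the windows of Gstm5 and of Mgst1 start site 1, where it lies on the opposite strand. This motif is held by 12.39% of all 32851 promoter windows. TATAAA stood in the windows of Gstm1 start site 2 and Gstm5, against 13.62% of all windows. TAATTG stood only in that of Gstm1 start site 2 among the 11 windows, against 8.0% of all windows. Neither Gsto2 window held any of the 3 motifs. The GC box GGGCGG, held by 35.66% of all windows, had 2 matches at Gsto2 start site 2, and the E-box CANNTG, held by 72.31%, had 1 match in each Gsto2 window. These are matches of letters in reference windows and not measured sites.

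Gsto2, an omega class enzyme, was readily detected in D2 oocytes, at a lower level in F1 oocytes and at a few reads per library in B6 oocytes. The gene (NCBI identifier 68214) lies on the plus strand of chromosome 19 at 47865534 to 47886324 in the GRCm38 annotation of GENCODE. In D2 MII libraries Gsto2 measured 19.6, 19.7 and 23.6 CPM in batch 1 and 7.52 and 10.4 CPM in batch 2. In F1 MII libraries it measured 3.26, 8.87 and 10.0 CPM in batch 1 and 4.24 and 5.5 CPM in batch 2. In the 6 B6 MII libraries it ranged from 0 to 0.18 CPM, with a mean of 0.0671 CPM and 12 reads in all. For the 2 B6 MII libraries without a read, a count of 0 allows up to 0.111 and 0.116 CPM (3 counts, counting error only).

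In D2 GV libraries Gsto2 measured 29.4, 53.1 and 53.6 CPM in batch 1 and 29.6 and 30.3 CPM in batch 2. In the 6 F1 GV libraries it ranged from 12.7 to 28.2 CPM, with a median of 21 CPM. In B6 GV libraries it measured 0.139, 0.153 and 0.235 CPM in batch 1 and 0.0822 and 0.0946 CPM in batch 2, from 19 reads in all. Every D2 and every F1 library thus lay above every B6 library of its stage, in each batch.

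**Figure D1:**
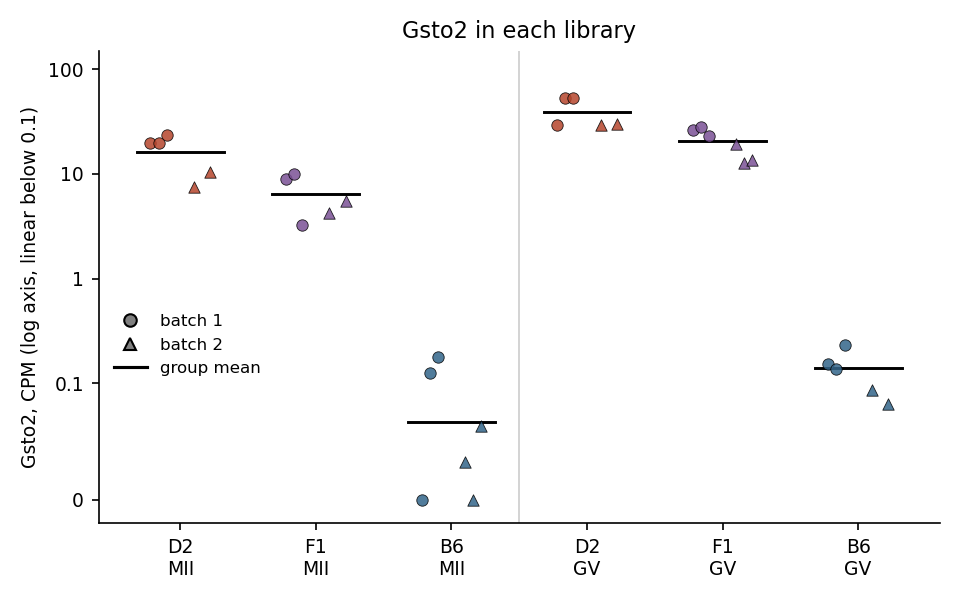
Gsto2 in TMM-scaled CPM (log axis, linear below 0.1) in each of the 32 libraries, by group, with MII groups on the left and GV groups on the right. Circles are batch 1, triangles batch 2, and lines are group means: D2 and F1 libraries all sit above 3 CPM and B6 libraries all sit below 0.3 CPM.

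The group means ran from 39.2 CPM in D2 GV through 20.5 CPM in F1 GV, 16.2 CPM in D2 MII, 6.38 CPM in F1 MII and 0.141 CPM in B6 GV down to 0.0671 CPM in B6 MII. Neighbours in this order overlapped in their libraries except D2 GV with F1 GV and F1 MII with B6 GV. The fitted D2 minus B6 difference of Gsto2 was 7.68 ± 0.38 on the log2 scale (SE) in MII and 8.12 ± 0.40 in GV. These are the values that singled the gene out.

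F1 libraries took no part in that choice, although the parental libraries they are set against did. Gsto2 passed the filter on low counts through its D2 and F1 libraries, as 0 B6 libraries reached the 0.356 CPM that 5 libraries had to reach. With B6 chosen as the low parent, the F1 minus B6 difference of Gsto2 is given as a description only, 6.42 ± 0.38 on the log2 scale in MII and 7.24 ± 0.39 in GV. In MII it was 6.07 in batch 1 and 6.97 in batch 2, where F1 and B6 came from different sets, and 6.38 with batch fitted in 3 levels. In GV it was 7.19 in batch 1, 7.35 in batch 2 and 7.22 with 3 levels. Gsto2 was lower in F1 than in D2, with an F1 minus D2 difference of -1.27 ± 0.27 on the log2 scale in MII (edgeR quasi-likelihood, Benjamini-Hochberg adjusted p = 0.0018), 0.415 of the D2 level, and of -0.88 ± 0.26 in GV (adjusted p = 0.0303), 0.543 of the D2 level. The gene was chosen with D2 as its high parent in these same libraries, which favours a lower F1 in these tests. Their p-values are thus not free of that choice. Within each batch every F1 library lay below every D2 library at both stages. By batch that difference was -1.49 in batch 1 (adjusted p = 0.0183) and -0.85 in batch 2 (adjusted p = 0.446) in MII, and -0.87 (adjusted p = 0.276) and -1.02 (adjusted p = 0.277) in GV. The GV call was lost in fits without F1 GV batch 2 replicate 2 (adjusted p = 0.0687), D2 GV batch 2 replicate 2 (adjusted p = 0.0787), F1 GV batch 1 replicate 5 (adjusted p = 0.0551) or D2 GV batch 1 replicate 4 (adjusted p = 0.0527).

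Where F1 stood between the parents depended on the scale. Against the mean of the parents' log2 levels, Gsto2 in F1 was at 2.57 ± 0.27 in MII and 3.18 ± 0.25 in GV. A B6 level near 0 pulls that mean far below the D2 level, and the gene was chosen for its low B6 level, so these values are a description only. Against the mean of the parents' CPM, F1 was at 0.828 of it in MII, with 0.63 in batch 1 and 1.09 in batch 2. In GV, F1 was at 1.08 of it, with 1.17 in batch 1 and 0.993 in batch 2. Neither differed detectably from that arithmetic mean by an exact two-sided permutation test of libraries within batch. The test gave p = 0.5 in MII (120 permutations, smallest possible p 0.0167) and p = 0.575 in GV (200 permutations). It took the mean B6 CPM of each batch as fixed. The gene was chosen from these parental libraries, so the p-values are not free of that choice.

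Of the 10 genes, Gsto2 alone passed the threshold between F1 and D2, lower at each stage, where 3.2% of all tested genes were lower in MII and 1.97% in GV. The D2 values of Gsto2 took part in its choice, so this count is a description only.

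Gsto2 fell between GV and MII. In D2 it fell by 1.35 ± 0.27 on the log2 scale in MII (adjusted p = 0.000364), where all 5 MII libraries lay below all 5 GV libraries. In F1 it fell by 1.74 ± 0.27 (adjusted p = 7.36e-06), again with all 5 MII libraries below all 6 GV libraries. In B6 the difference was -0.92 ± 0.51 (adjusted p = 0.195), on 12 reads in MII and 19 in GV. At this depth the pooled GV level in B6 was 2.09 times the MII level, with a 95% counting interval of 0.963 to 4.72. The stage change did not differ detectably between strains, with a D2 minus B6 difference of -0.44 ± 0.68 (adjusted p = 0.912) and an F1 minus D2 difference of -0.39 ± 0.37 (adjusted p = 0.997).

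Gsto1, the other omega gene, ends 743 bases before Gsto2 begins, on the same strand. It was near the limit of detection, at 0.158 to 1.58 CPM in D2 MII, 0 to 1.29 CPM in F1 MII and 0 to 0.36 CPM in B6 MII, and at 0.401 to 2.59 CPM in D2 GV, 0.323 to 1.97 CPM in F1 GV and 0.378 to 1.88 CPM in B6 GV. Its D2 minus B6 difference was 2.21 ± 0.83 in MII and 0.53 ± 0.82 in GV. The annotations differ on Cfap43, on the opposite strand: in GENCODE it spans both omega genes, from 47736857 to 47919287, with 0 exon bases in common with either, while in RefSeq it ends at 47837454, before Gsto1. No 50-base window of the Gsto1 or Gsto2 transcript occurred in another gene's transcript.

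The 3 nearest tested genes on each side of Gsto2 did not all share its pattern. At both stages the means of Gsto1, Itprip and Cfap58 ran as for Gsto2, with D2 above F1 and F1 above B6. Those of Cfap43 and Sfr1 ran the other way, and Sorcs3 followed neither order. Cfap58, a cilium and flagellum gene 2 tested genes beyond Gsto2, averaged 21.6 CPM in D2 MII, 7.66 CPM in F1 MII and 1.17 CPM in B6 MII, and 28.6, 11.0 and 1.46 CPM in the D2, F1 and B6 groups of GV. It was higher in F1 than in B6 by 2.58 ± 0.39 in MII (adjusted p = 1.75e-05) and 2.95 ± 0.41 in GV (adjusted p = 5.01e-06), and lower in F1 than in D2, at -1.47 ± 0.39 in MII (adjusted p = 0.011) and -1.33 ± 0.36 in GV (adjusted p = 0.0188). Itprip, which encodes a protein that binds the inositol trisphosphate receptor, lies between Gsto2 and Cfap58. Its D2 minus B6 difference was 1.11 ± 0.27 in MII and 1.34 ± 0.28 in GV. Its F1 minus B6 difference was 0.73 ± 0.27 in MII (adjusted p = 0.091) and 0.79 ± 0.27 in GV (adjusted p = 0.087). On the other side lies Cfap43, also a cilium and flagellum gene, with a D2 minus B6 difference of -0.73 ± 0.29 in MII and -1.29 ± 0.31 in GV. For Sfr1, a recombination cofactor, that difference was -0.24 ± 0.11 in MII and -0.46 ± 0.12 in GV. For Sorcs3, a sorting receptor gene, the D2 minus B6 values were -0.58 ± 0.44 in MII and 0.24 ± 0.45 in GV.

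**Figure D2:**
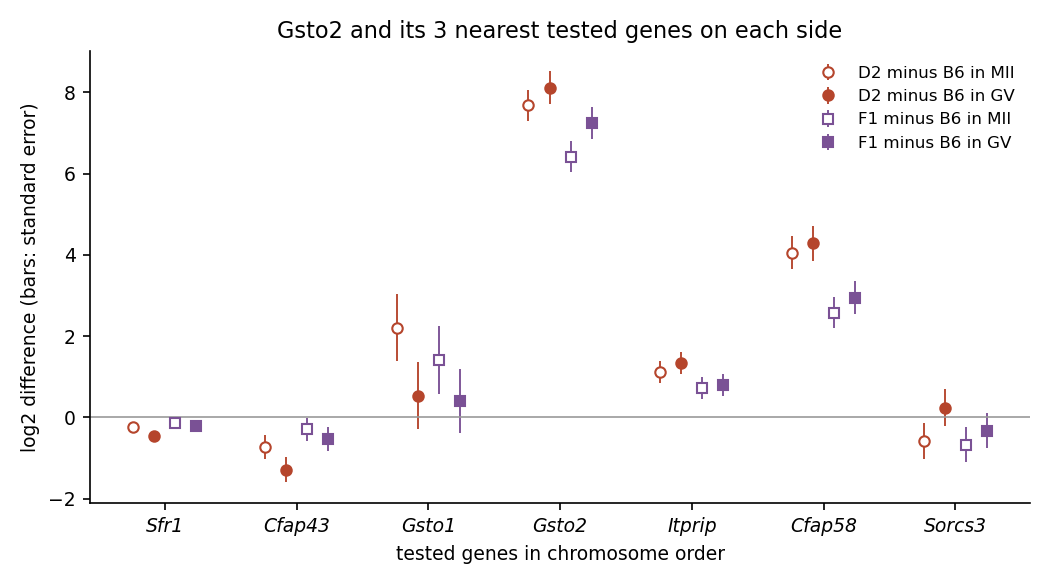
Fitted log2 differences (bars are standard errors) of D2 minus B6 (red circles) and F1 minus B6 (purple squares) for Gsto2 and its 3 nearest tested genes on each side, in chromosome order, with MII open and GV filled. Gsto2 lies between 6 and 9 on this scale, Cfap58 between 2 and 5, and the genes between and around them closer to 0 or below it.

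Of 13768 genes with a mean of at least 1 CPM, the 5 whose log2 CPM followed Gsto2 most closely over the 32 libraries were Defb48 (Pearson r = 0.976), a defensin gene, Arhgef15 (0.97), Bfsp1 (0.964), a lens filament gene, Gm31939 (0.962), a predicted gene, and Pnpla3 (0.961), a lipid hydrolase gene. They lie on chromosomes 14, 11, 2, 12 and 15. Like Gsto2, each averaged more in D2 than in F1 and more in F1 than in B6 at both stages. Pnpla3, for example, averaged 292 CPM in D2 MII, 127 CPM in F1 MII and 1.13 CPM in B6 MII. These correlations describe libraries that share strain, stage and batch.

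Most of the family was lower in MII than in GV. Averaged over the strains, 9 of the 10 genes were lower in MII and 0 were higher, where 29% of all tested genes were lower and 22.9% higher. Gstm1 and Gstm2 passed the filter on low counts only through their GV libraries (3 and 1 MII libraries reached its level, against 14 and 13 GV libraries), so that they had to differ by stage. Of the other 8 genes, 7 were lower and 0 higher. The median log2 change was -1.39 over these 8 genes and -0.06 over all genes. DESeq2 and limma-voom each called 9 and 0 of the 10, and at an unadjusted p under 0.05 the count of higher genes was also 0. CPM is a share of each library, and the total RNA per oocyte was not measured. Per strain 6 of the 10 genes were lower in MII in D2, 7 in F1 and 5 in B6, against 15.6%, 18% and 16.4% of all genes, and without Gstm1 and Gstm2 4, 5 and 3 of 8. In batch 2 alone 1 of the 10 genes was lower in each of D2, F1 and B6. With the level of granulosa cell markers as a covariate 3 were lower in D2, 4 in F1 and 2 in B6. Shares over all genes were not taken for these fits, so the smaller counts are not read as particular to the family. In B6 the count was 3 without B6 GV batch 2 replicate 2 or B6 MII batch 1 replicate 2. The stage change differed between strains for 0 of 30 comparisons with edgeR, with 1 at an unadjusted p under 0.05 and 0 with DESeq2 or limma-voom, against 0.105%, 0.0105% and 0.0316% of all genes in the D2 minus B6, F1 minus B6 and F1 minus D2 contrasts of stage change.

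**Figure D3:**
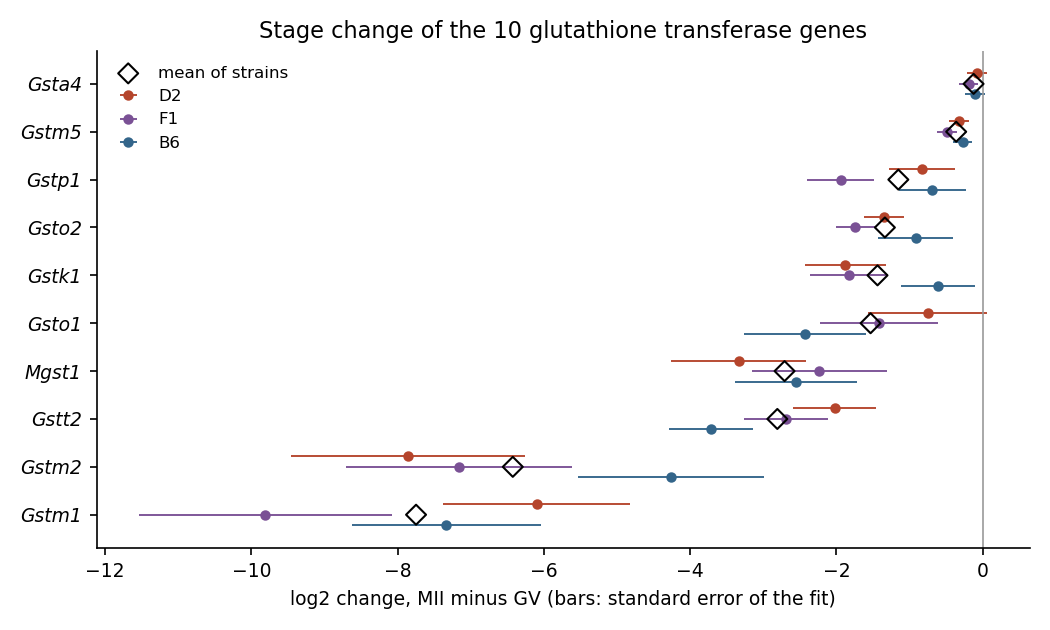
Log2 change of each of the 10 genes from edgeR, MII minus GV, in D2, F1 and B6 (dots with standard errors) and as the mean of the strains (open diamonds). Gstm1 and Gstm2 lie below -6 as a mean of strains, the others lie between -3 and 0, and Gsta4 lies nearest to 0.

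The mu class held both the steepest and nearly the flattest changes. Gstm1, a conjugating enzyme abundant in liver and other tissues, measured at most 1.27 CPM in D2 MII, 0.0864 CPM in F1 MII and 0.378 CPM in B6 MII. In GV its median was 31.5 CPM in D2, 16.7 CPM in F1 and 28.4 CPM in B6, but 1 library of each strain lay under 1 CPM. Its fitted MII minus GV difference, given without a test because of the filter, was -7.75 ± 0.84 on the log2 scale, and pooled over strains 11631 GV reads stood against 87 MII reads, a ratio of levels of 130 with a 95% counting interval of 105 to 163. In F1 that ratio rested on 3 MII reads and was 1040, with an interval of 356 to 5050. Gstm2 had 0 to 0.681 CPM in MII and 0 to 29.6 CPM in GV, and its fitted difference, likewise without a test, was -6.42 ± 0.85. In the 3 GV libraries without a Gstm2 read a count of 0 allows 0.1 to 0.159 CPM.

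Gstm5, the third mu gene, was at 27.1 to 95.8 CPM in MII libraries and 31.6 to 112 CPM in GV libraries. In MII it fell by 0.36 ± 0.08 on the log2 scale (adjusted p = 0.000241), with -0.37 in batch 1 and -0.47 in batch 2. Of its 50-base transcript windows 14.4% also occurred in 4933431E20Rik, and the share for Gstm1 was 23.1% and for Gstm2 9.4%, with relatives or pseudogenes of the mu class. Reads of such stretches cannot be assigned to a single gene.

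Gsta4, an alpha enzyme that acts on hydroxynonenal, a product of lipid peroxidation, did not pass the test. Its stage difference was -0.12 ± 0.08 (adjusted p = 0.199), with a level of 51.2 to 206 CPM in MII and 62.8 to 249 CPM in GV. Per kilobase of exon, the scale on which genes may be compared, Gsta4 was the highest of the 10 in every group, at 153 CPM per kb in D2 MII, 122 in F1 MII and 99.2 in B6 MII, and 166, 143 and 105 in D2, F1 and B6 GV. Gstm5 followed, with 44.3 CPM per kb in D2 MII and 54.7 in D2 GV. Gsto2 reached 9.28 CPM per kb in D2 MII and 22.5 in D2 GV, where it was the third, ahead of Gstm1 at 19.7.

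Gstt2, a theta enzyme, fell by 2.81 ± 0.33 on the log2 scale in MII (adjusted p = 1.61e-08). Its MII libraries measured 1.48 to 4.16 CPM in D2, 0.433 to 3.72 CPM in F1 and 0.0958 to 1.59 CPM in B6. Its GV libraries measured 6.59 to 19.8 CPM in D2, 4.41 to 20.3 CPM in F1 and 3.04 to 21.7 CPM in B6. The stages did not overlap in any strain, and the change was -3.39 in batch 1 and -2.45 in batch 2.

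The remaining 4 genes fell by smaller steps or on fewer reads. Mgst1, the microsomal enzyme of the endoplasmic reticulum and outer mitochondrial membrane, fell by 2.71 ± 0.53 (adjusted p = 7.62e-05), with medians of 0.82 CPM in MII and 5.15 CPM in GV. Its change was -4.00 in batch 1 and -1.28 in batch 2 (adjusted p = 0.301 in batch 2). Gsto1 fell by 1.53 ± 0.47 (adjusted p = 0.00665), with -1.48 in batch 1 and -1.95 in batch 2 (adjusted p = 0.195). Gstk1, the kappa enzyme, fell by 1.44 ± 0.30 (adjusted p = 0.000154), with medians of 1.12 CPM in MII and 2.91 CPM in GV, and -1.37 in batch 1 and -1.61 in batch 2 (adjusted p = 0.0697). Gstp1, the pi enzyme, which also binds stress kinases, fell by 1.15 ± 0.26 (adjusted p = 0.000327), with -1.71 in batch 1 and -0.58 in batch 2 (adjusted p = 0.33). Of the Gstp1 windows 62.3% also occurred in Gstp2 or Gstp-ps, so its level is uncertain.

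Markers of granulosa and cumulus cells, the somatic cells that surround the oocyte, moved with the stage. Of 25 such markers 24 were tested, and 17 were lower and 4 higher in MII. Of all tested genes 29% were lower and 22.9% higher. They summed to 561 to 870 CPM in MII libraries, with a median of 720, and to 547 to 4480 CPM in GV libraries, with a median of 1230. Foxl2 and Slc38a3 were at 0 in all 16 MII libraries, while Bmpr1b and Serpine2, which made up most of the MII sum, were at 297 and 226 pooled CPM in MII and 246 and 215 in GV. Ptx3, Tnfaip6 and Ptgs2 were also higher in MII, at 0.318, 0.647 and 4.79 pooled CPM, against 0.0212, 0.0824 and 3.02 in GV. Ptx3 had no read in 10 of the 16 MII libraries. Markers of stroma and blood, 14 of 16 tested, were lower in MII for 12 and higher for 1, and summed to 32 to 78.3 CPM in MII and 19.6 to 673 CPM in GV. In such pools fewer somatic cells and less RNA per cell cannot be told apart.

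In 3 GV libraries, all of batch 2 and 1 from each strain, the granulosa level (mean log2 CPM of the markers) was 0.95 in D2, 0.75 in F1 and 0.37 in B6, within the MII range, whose highest value was 1.11. In these 3 libraries Gstm1 was at 0.0334 to 0.583 CPM, against 8.83 to 32.3 CPM in the other 4 GV libraries of batch 2 and up to 85.7 CPM in all 13 others. Gstm2 was at 0 in all 3, against 1.05 to 12.3 CPM in those 4 libraries and up to 29.6 CPM in the 13. Mgst1 was at 0.053 to 0.435 CPM, against 0.823 to 6.45 CPM in the 4 and up to 16.5 CPM in the 13. In the GV pools with few granulosa transcripts these 3 genes thus stood within or below their MII range. Gstp1 overlapped, at 0.804 to 3.54 CPM with a median of 2.76 in the 3 libraries, against 2.42 to 8.58 CPM with a median of 3.3 in the other 4 of batch 2. Gsta4 was at 157 to 211 CPM there, Gstm5 at 42.1 to 73 CPM, Gstt2 at 4.3 to 8.43 CPM and Gstk1 at 1.7 to 2.65 CPM. Gsto2 in the same 3 libraries was at 30.3 CPM in D2, 19.2 CPM in F1 and 0.0946 CPM in B6.

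**Figure D4:**
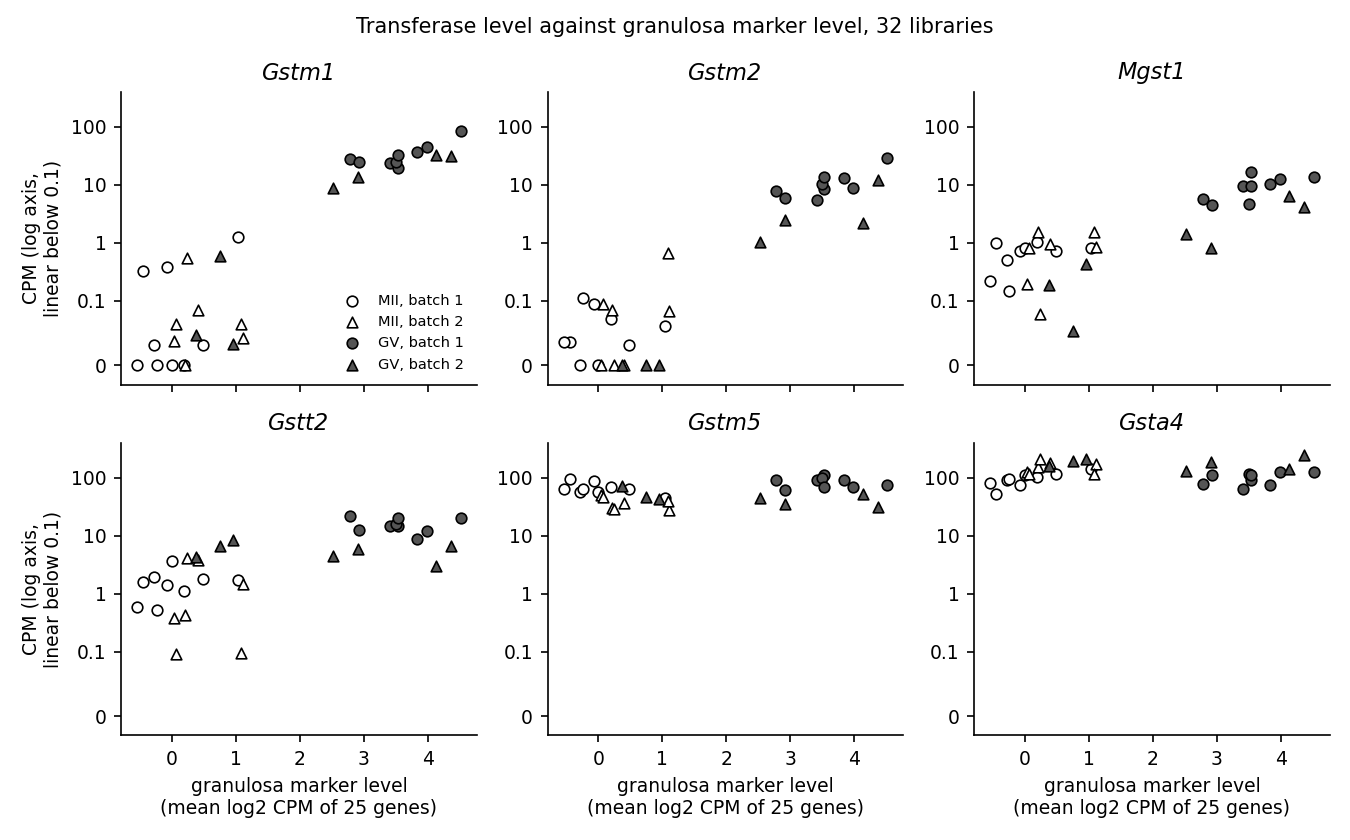
CPM of 6 genes (log axis, linear below 0.1) against the granulosa marker level (mean log2 CPM of 25 genes) in the 32 libraries, MII open and GV filled, circles batch 1 and triangles batch 2. The 3 filled triangles at a granulosa level below 1 lie among the MII libraries for Gstm1, Gstm2 and Mgst1, and at or above the highest MII library for Gstt2.

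With the granulosa level as a further term in the fit, 4 genes remained lower in MII, namely Gsto2 (-1.58, adjusted p = 0.00116), Gstm5 (-0.62, adjusted p = 0.00102), Gstt2 (-2.79, adjusted p = 0.000301) and Gstk1 (-1.91, adjusted p = 0.0163). In that fit Gstp1 was at -0.33 (adjusted p = 0.735), Gsto1 at -1.45 (adjusted p = 0.28) and Mgst1 at 1.69 (adjusted p = 0.0592). Gstm1 was at -2.27 and Gstm2 at 0.28, both given without a test because of the filter. The granulosa level and the stage differ together in all but those 3 GV libraries, so this fit rests on them. Without the 3 libraries, 9 genes were lower in MII. The share of all genes lower in MII was not taken in either fit, so these counts are not read as particular to the family.

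Between the parental strains, Gsta4 and Gstm5 differed in opposite directions, given here as a description. Of all tested genes, 26.4% passed the threshold between D2 and B6 in MII and 20.5% in GV, in either direction. Gsta4 in MII measured 111, 114 and 138 CPM in batch 1 and 175 and 206 CPM in batch 2 in D2, against 51.2, 73.1 and 104 CPM in batch 1 and 114, 115 and 124 CPM in batch 2 in B6. Within each batch every D2 library lay above every B6 library at both stages. The fitted D2 minus B6 difference was 0.69 ± 0.14 in MII and 0.67 ± 0.14 in GV. Gstm5 in MII measured 43.9, 55.8 and 64.7 CPM in batch 1 and 27.1 and 29.0 CPM in batch 2 in D2, against 67.7, 85.8 and 95.8 CPM in batch 1 and 39.8, 45.5 and 50.0 CPM in batch 2 in B6. Within each batch every D2 library lay below every B6 library at both stages, and the differences were -0.63 ± 0.14 in MII and -0.59 ± 0.14 in GV.

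**Figure D5:**
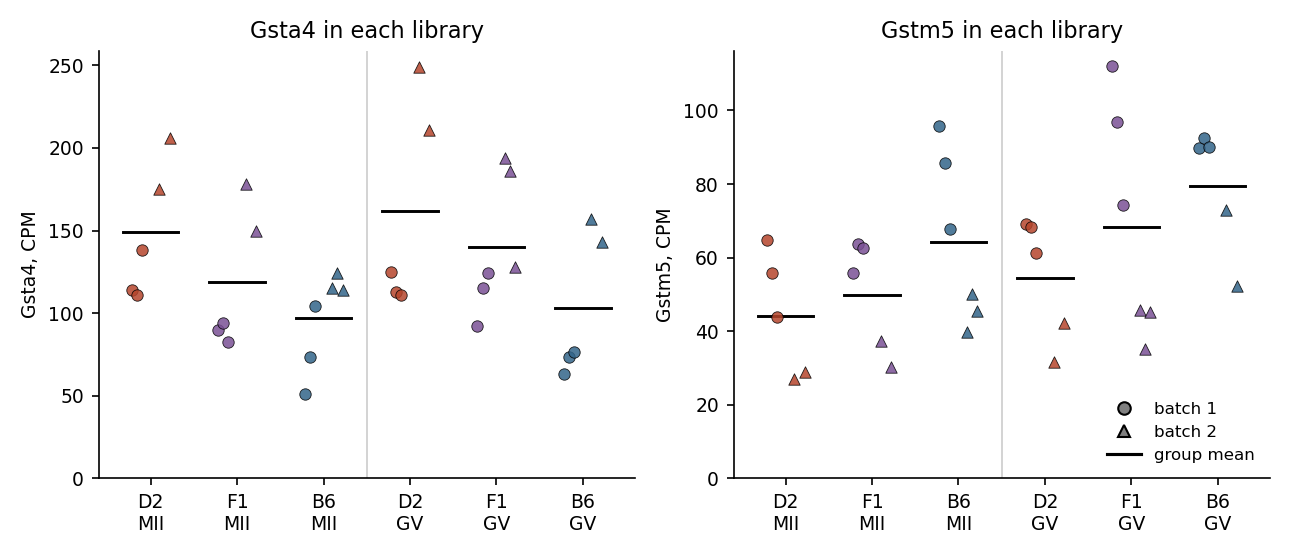
CPM of Gsta4 (left) and Gstm5 (right) in each of the 32 libraries by group, with circles for batch 1, triangles for batch 2 and lines for group means. D2 lies above B6 for Gsta4 and below B6 for Gstm5 within each batch at each stage.

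F1 oocytes lay between the parents for both genes in the group means, but few of these differences passed a test. Gstm5 was lower in F1 than in B6 in MII, at -0.44 ± 0.14 (adjusted p = 0.0409), where 2.7% of all genes were lower, a call lost in 17 of 32 fits that left out a library, with adjusted p up to 0.106, and with batch in 3 levels (-0.33, adjusted p = 0.186). In GV it was at -0.22 ± 0.14 (adjusted p = 0.433). Gsta4 was at 0.34 ± 0.14 (F1 minus B6, adjusted p = 0.129) in MII and 0.43 ± 0.14 (adjusted p = 0.0561) in GV. The GV difference passed the threshold in 12 of 32 fits that left out a library, with adjusted p from 0.0124 to 0.105, and the MII difference in 1 of 32, without B6 MII batch 1 replicate 3 (adjusted p = 0.0177).

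Gstt2 in MII had a D2 minus B6 difference of 2.00 ± 0.56, with 0.75 in batch 1 and 3.81 in batch 2.

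Beyond the 10 genes, 30 of 33 listed relatives with a transferase fold or activity were in the table and 24 were tested. Of these 4 were higher and 15 lower in MII, with a median log2 change of -1.02. Mgst2, at 0.00203 CPM in MII and 0.393 CPM in GV on average, passed the filter through GV libraries and had to differ by stage. Gstm4 and Gstt1 were also low in MII, at 0.0566 and 0.0416 CPM, against 0.974 and 0.659 CPM in GV. The list was not counted without such genes. Eef1g, a translation elongation subunit with a transferase-like domain, fell by 3.08 ± 0.20 (adjusted p = 8.22e-15), at 4.11 ± 2.82 CPM in MII and 31.2 ± 14.8 CPM in GV (SD, n = 16 each). Ltc4s, a leukotriene synthase of the microsomal family, fell by 0.88 ± 0.24 (adjusted p = 0.00197). Gdap1, a protein of the outer mitochondrial membrane, was higher by 0.49 ± 0.06 (adjusted p = 1.11e-07), and Clic4, an intracellular channel protein with the transferase fold, by 0.36 ± 0.06 (adjusted p = 1.3e-05).

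Genes that make, recycle or transport glutathione were mixed: 7 of 33 tested were higher and 13 lower in MII, with a median of -0.19. Slc7a11 and Slc3a2, the subunits of the importer that supplies cystine for glutathione synthesis, were higher, at 578 ± 109 CPM in MII and 457 ± 102 CPM in GV for Slc7a11 (0.34 ± 0.07, adjusted p = 0.000203), and by 0.40 ± 0.09 for Slc3a2 (adjusted p = 0.000223). The glutaredoxin genes Glrx5 and Glrx3, which act in iron-sulfur biology, changed by -2.57 ± 0.16 (adjusted p = 1.35e-15) and -0.36 ± 0.10 (adjusted p = 0.00288). Of 26 tested genes of the Nrf2 list, which holds this regulator of antioxidant genes, its partners and its targets, 3 were higher and 14 lower, with a median of -0.35. G6pdx, the entry enzyme of the pentose phosphate pathway, was higher by 0.50 ± 0.05 (adjusted p = 2.66e-10), while Fth1 (ferritin), Cat (catalase) and Tkt (transketolase) were lower, at -2.64 ± 0.21, -2.1 ± 0.30 and -0.87 ± 0.13 (adjusted p = 5.99e-12, 6.13e-07 and 1.12e-06). The counts of these 3 lists stand beside 22.9% higher and 29% lower over all genes. Among the glutathione genes Dpep1 averaged 0 CPM in MII and 1.69 CPM in GV. In the Nrf2 list Ephx1 averaged 0.00396 CPM in MII and 2.06 CPM in GV. Like Mgst2, they passed the filter through GV libraries, so the lower counts and medians of these lists are partly set by it.

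Against the log2 mid-parent in MII, 1.01% of all genes were higher in F1. In the Nrf2 list Me1, a malic enzyme that makes NADPH, was among them at 0.84 ± 0.11 (adjusted p = 2.11e-06), with 182 ± 32.6 CPM in F1 MII (SD, n = 5), 32.4 ± 3.73 CPM in D2 MII (n = 5) and 310 ± 37.8 CPM in B6 MII (n = 6), so that the parents of Me1 stood in the opposite order to those of Gsto2. As for Gsto2, this comparison depends on the scale. Me1 was not tested against the mean of the parents' CPM, so the call is no sign of F1 excess on that scale.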

How the data were processed

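RNA was read out as single reads of 50 nt from 32 libraries of oocyte pools. Per the labels' protocols, RNA was amplified by single primer isothermal amplification (SPIA) before library preparation. Per the submitters' processing notes, HISAT2, SAMtools, featureCounts of Subread 1.5.1 and DESeq2 1.16.1 were used with GRCm38.p4. The sources used here do not say how strand and multi-mapping reads were handled. The authors deposited raw counts per gene, not normalised. Of 37444 entries, 3 named no gene, with at most 0.019% of a library, and were left out. A RefSeq symbol was found for 36371 of the 37441 others. GRCm38 was built from a B6 strain, and the effect of strain on alignment was not tested.

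A model with the 6 groups and batch was fitted to the counts with edgeR 4.0.16 (filterByExpr, TMM, robust quasi-likelihood test, two-sided) in R 4.3.3, with Benjamini-Hochberg adjustment over 19003 genes within each of 15 contrasts and a threshold of 0.05. SE is the size of a log2 difference divided by the square root of F. Groups came from the strain and stage labels. Exact permutation tests, counting intervals and floors were computed as given beside their values. Intervals and floors cover counting error only, since reads carried no molecular identifiers. Depth and library number limit precision.

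Alternatives were median-of-ratios and upper-quartile scaling, no filter, 1 CPM in 16 libraries, DESeq2 1.42.0, limma-voom (limma 3.58.1), a fit that ignored batch, batch in 3 levels, each batch alone, a replicate block, each library left out, the granulosa level as a covariate, and leaving out the 3 GV libraries of low granulosa level. The genes, gene lists and alternatives were chosen with earlier results of these data known. The 10 transferases were all named. From each other list, called genes with a mean of at least 5 CPM were named, up to 4 with the lowest adjusted p, for MII against GV and for F1 against the log2 mid-parent in MII. Python 3.11.15 with numpy 2.4.6, pandas 2.3.3 and matplotlib drew the figures. Gene positions, exon lengths and transcript windows came from GENCODE M21.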

Additional observations from a re-analysis of the deposited data

Results flagged for a closer look

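In 7 of the 60 sets of libraries tested (10 genes in 6 groups), the highest or lowest library stood apart from the others by Dixon's criterion. Chance meets it in about 1 in 20 sets of normally distributed values. It was applied here to CPM without a log, and the sets share libraries, so no excess is read from the 7. The library of F1 GV batch 1 replicate 5 was the highest of its group for both Gstm1, at 85.7 CPM with the next at 24.8, and Gstm2, at 29.6 CPM with the next at 10.4. It also had the highest granulosa level of all libraries, 4.51, and the part of this in the result was not tested. Gstm2 was at 0.681 CPM in B6 MII batch 2 replicate 1, with the next at 0.0958. That library had the highest granulosa level of its group, 1.08. Gstp1 was at 6.63 CPM in B6 MII batch 2 replicate 2, with the next at 3.17. Gstk1 was at 8.02 CPM in D2 GV batch 1 replicate 3, with the next at 3.59. Gsto1 was at 1.88 CPM in B6 GV batch 1 replicate 4, with the next at 0.575. Mgst1 was low, at 0.0792 CPM, in D2 MII batch 2 replicate 2, where the next was at 0.728. Gsto2, Gsta4, Gstm5 and Gstt2 had no such library in any group.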

How the results depend on the processing

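Of 1693 recomputed values for 39 results, 1613 were labelled as kept. Differences were so labelled if they kept their direction and their side of the threshold, or moved by less than the spread. A count of genes was taken as kept if near the main count, such as 6 for 9 with 1 CPM in 16 libraries. The total includes fits that left out a library outside the comparison. Genes lower in MII as a mean of strains numbered 9 in every fit that left out a library, 5 in batch 2 alone and 4 once the granulosa level entered as covariate. Shares over all genes were not taken for those last settings. In B6 the count of 5 became 1 with 1 CPM in 16 libraries, 1 in batch 2 alone, 3 with the replicate block and 2 with the granulosa level, and 3 to 5 with a library left out (3 without B6 GV batch 2 replicate 2 or B6 MII batch 1 replicate 2). In D2 it became 1 in batch 2 alone and 3 with the granulosa level, and in F1 1 and 4. The granulosa level reversed Gstm2 (0.28) and Mgst1 (1.69). The filter at 1 CPM left 6 of the 10 genes, all lower in MII, with Gsta4 at -0.19 (adjusted p = 0.0436), and Gsta4 also passed in batch 2 alone (-0.30, adjusted p = 0.046). Gstm5 lost its stage call without a batch term (adjusted p = 0.0962). Gsto2 in F1 against D2 in GV lost its call without a batch term (-0.94, adjusted p = 0.196), in batch 1 (-0.87) and batch 2 alone (-1.02), with the replicate block (-0.83, adjusted p = 0.0712) and without the low-granulosa GV libraries (-0.92, adjusted p = 0.0579), and ran from -1.07 to -0.83 with a library left out. In MII it lost the call in batch 2 alone (-0.85). Against the arithmetic mid-parent in GV, Gsto2 ran from -0.034 to 0.181 on the log2 scale with a library left out, the reversal being without D2 GV batch 1 replicate 3. Gstm5 in F1 against B6 in MII lost its call under 6 other settings, among them the replicate block (-0.30, adjusted p = 0.303), while Gsta4 in F1 against B6 in GV gained one under 5, among them the block (0.48, adjusted p = 0.0154), and in F1 against D2 in MII with the block alone (-0.39, adjusted p = 0.0446). Replicate numbers did not pair the libraries: deviations of same-numbered libraries correlated between -0.397 and 0.437, with a median of -0.034 over 59 pairs. Scaling by the median of ratios put the median change of all genes at -0.102 and upper-quartile scaling at -0.064, against -0.061. Low counts limit Gsto2 in B6 and Gstm1, Gstm2 and Gsto1 in MII. The causes of these changes were not tested.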
